A study of Mus musculus with 12 samples.

Results

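Genes whose symbol is Gm followed by a number are gene models that were predicted by annotation pipelines and had not been given a name of their own when the tables were made. In the deposited peak tables of an m6A immunoprecipitation study in mouse embryonic stem cells, 213 of the 6097 genes with a listed peak carried such a symbol in at least 1 table. They were chosen by the symbol alone, with no measured value, and are set here against the 5884 other named genes. The cells were of the J1 line, a mouse embryonic stem cell line, grown on irradiated fibroblast feeders with leukemia inhibitory factor. Each culture had been infected with a lentiviral shRNA against Mettl14, an shRNA against Mettl3 or a scramble shRNA, and selected with puromycin, so that all groups, the scramble cells included, share infection and selection. Each group had 2 libraries of fragmented poly(A) RNA precipitated with an anti-m6A antibody. The 4 tables fall into set 1 and set 2, which share no library, and within a set both knockdown tables use the same scramble library.

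N6-methyladenosine (m6A) is the most common internal modification of mRNA. METTL3 is the catalytic subunit of the methyltransferase and METTL14 is its RNA-binding partner, and the pair acts on a short motif in which the methylated A follows a purine and precedes a C. In embryonic stem cells the mark is known for limiting the lifetime of many transcripts. Predicted genes are a mixed class that holds noncoding RNAs, processed copies of mRNAs, members of tandem gene families and models that run across several neighbouring genes, so a peak listed under one need not belong to an RNA of its own.

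The sequences below show what lay under peaks of 6 Gm genes, 3 of them with a site listed in all 6 libraries (Gm5113, Gm962 and Gm9766) and 3 that lost every scramble peak in all 4 tables (Gm20632, Gm20649 and Gm5887). Each is the 201 nt around a scramble peak's centre, read 5′ to 3′ from GENCODE M21 transcripts, with mm10 coordinates. Capitals mark GGACT and its variants, which are GAACT, then AGACT, and finally AAACT: 4 spellings of the m6A motif that do not overlap one another, searched on the transcribed strand only.
Gm5113, chr7:30178053-30178253 (+ strand): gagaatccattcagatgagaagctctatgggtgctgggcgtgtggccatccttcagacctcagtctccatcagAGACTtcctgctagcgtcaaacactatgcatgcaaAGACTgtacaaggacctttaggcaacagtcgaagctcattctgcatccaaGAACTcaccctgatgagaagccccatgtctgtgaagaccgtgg
Gm962, chr19:5569910-5570110 (+ strand): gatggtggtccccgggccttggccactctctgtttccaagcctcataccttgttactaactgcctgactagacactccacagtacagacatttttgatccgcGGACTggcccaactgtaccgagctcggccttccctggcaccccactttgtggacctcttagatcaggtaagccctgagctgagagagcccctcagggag
Gm9766, chr10:53348751-53348951 (- strand): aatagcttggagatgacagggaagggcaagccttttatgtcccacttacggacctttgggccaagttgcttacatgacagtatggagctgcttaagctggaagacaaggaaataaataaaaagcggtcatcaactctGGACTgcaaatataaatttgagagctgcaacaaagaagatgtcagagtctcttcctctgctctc
Gm20632, chr3:96239488-96239688 (+ strand): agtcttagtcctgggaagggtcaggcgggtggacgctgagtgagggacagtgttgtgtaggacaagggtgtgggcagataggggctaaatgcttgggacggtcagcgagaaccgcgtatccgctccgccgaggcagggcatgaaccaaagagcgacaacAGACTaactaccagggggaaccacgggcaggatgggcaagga
Gm20649, chr9:74889370-74889570 (+ strand): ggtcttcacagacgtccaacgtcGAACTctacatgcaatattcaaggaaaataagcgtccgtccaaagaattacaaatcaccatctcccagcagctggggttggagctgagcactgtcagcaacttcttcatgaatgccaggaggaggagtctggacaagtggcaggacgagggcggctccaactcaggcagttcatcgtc
Gm5887, chr6:147075199-147075399 (- strand): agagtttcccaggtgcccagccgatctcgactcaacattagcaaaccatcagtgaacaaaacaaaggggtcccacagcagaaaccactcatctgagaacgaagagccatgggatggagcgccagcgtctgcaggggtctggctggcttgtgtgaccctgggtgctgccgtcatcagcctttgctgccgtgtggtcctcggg
The Gm5113, Gm20632 and Gm20649 stretches lie in noncoding exons of those gene models, and those of Gm962, Gm9766 and Gm5887 lie in coding sequence. Gm962 and Gm9766 hold 1 GGACT each, Gm5113 holds 3 of the other spellings, Gm20632 and Gm20649 hold 1 each, and Gm5887 holds none of the 4. The Gm20649 stretch is also transcribed sequence of Onecut1, a homeobox transcription factor gene, under which the same peak was listed. For that stretch, noncoding refers to the Gm20649 model and not to Onecut1. In the scramble libraries, 73.8% of 107 Gm stretches in set 1 and 71.7% of 60 in set 2 held at least 1 of the 4 spellings, against 71.5% of 6116 and 68.2% of 4281 stretches of other named genes. The share with GGACT was 37.4% and 28.3% for Gm stretches, against 34.0% and 33.1% for other named genes, so its direction differed between the sets.

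Of the 213 Gm genes, 85 (39.9%) were protein coding in the GENCODE M21 annotation of the same build, against 97.0% of the other named genes. A further 80 were long noncoding genes, 37 of them of the antisense type and 17 lincRNAs, 34 were pseudogenes and 14 were not found there by identifier. The symbol itself had since changed for many: 144 genes kept the same name, 7 carried another Gm number and 48 had a name of another form. These include Lncenc1 (Gm11019), a long noncoding RNA named for embryonic stem cells, Mymx (Gm7325), a micropeptide of muscle cell fusion, Ap5b1 (Gm962), a subunit of an adaptor protein complex, Natd1 (Gm16515), Cep85l (Gm9766), Mansc4 (Gm5887) and 8 zinc finger genes named Zfp. The median genomic span was 6844 nt for Gm genes and 26664.5 nt for other named genes.

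Peaks under Gm genes were a small part of each library. There were 131 and 81 in the Mettl14 knockdown libraries (set 1 and set 2), 113 and 98 in the Mettl3 knockdown libraries and 219 and 119 in the scramble libraries, or 1.85% to 2.78% of all peaks listed. Those 761 peaks fell on 317 sites, a site being a group of overlapping peaks on the same strand, and most Gm genes had few: 160 genes had 1 site, 42 had 2 and 11 had 3 or more. As many as 89 Gm genes had a peak in 1 library alone and 30 had a peak in all 6. Of the 317 Gm sites, 148 (46.7%) were listed in 1 library and 38 (12.0%) in all 6, against 30.9% and 25% of 8177 sites of other named genes. Sites of Gm genes were thus more often listed once and less often in every library.

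**Figure D1:**
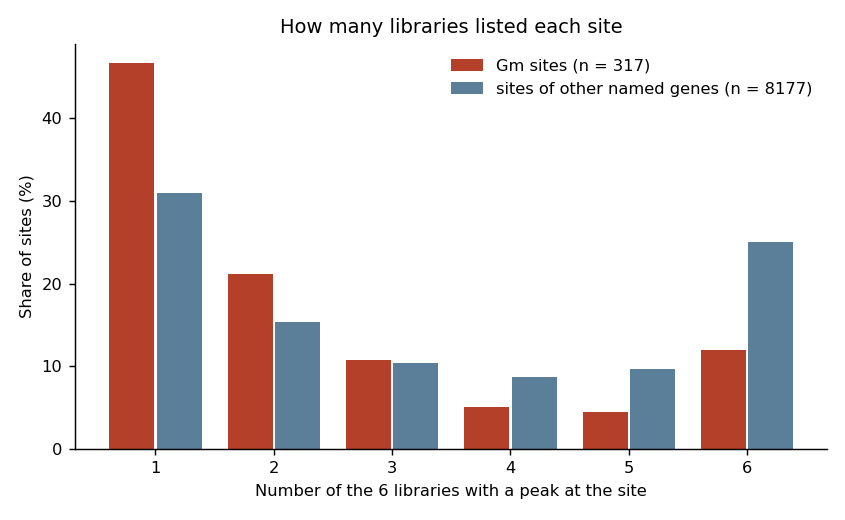
Share of peak sites, in percent, by the number of the 6 anti-m6A libraries that listed a peak there, for 317 sites under Gm genes (red, left) and 8177 sites under other named genes (blue, right). The Gm bars are tallest at 1 library (46.7%) and stand below the other genes' bars at 6 libraries (12.0% against 25%).

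Gm peaks were narrower, had a higher fold enrichment and rested on fewer tags than peaks of other named genes, in each of the 6 libraries. Fold enrichment is the authors' ratio of the immunoprecipitate to its own control within the peak, and tags are the reads counted in it. The median Gm width ran from 320 to 598 nt over the libraries, against 528 to 712 nt, and the difference averaged -166.5 ± 32.1 nt (SD over 6 libraries). The median Gm enrichment ran from 15.4 to 31.9, against 11.6 to 16.9, with a ratio of 1.64 ± 0.281 (SD over 6 libraries). The median tag count ran from 27 to 52 for Gm peaks, against 53 to 85, with a ratio of 0.551 ± 0.125 (SD over 6 libraries). The scramble tag values cover only scramble peaks that were lost in at least 1 knockdown, because the tables give no tags for the rest.

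Narrow peaks had high enrichments in both classes, and the Gm excess was not seen throughout among wide ones. Among peaks of at most 300 nt, the median Gm enrichment was above that of other named genes in 6 of 6 libraries, for example 91.0 against 53.1 in the set 1 Mettl14 knockdown library. It was above in 5 of 6 libraries among peaks of 301 to 600 nt. Among peaks over 600 nt it was above in 3 of 6 libraries, for example 9.53 against 10.8 in that same library. With peaks known to have under 30 tags left out, the mean width difference was -30.3 nt. The log2 ratio of median enrichments was then 0.15, against 0.70 over all peaks. Scramble peaks without a tag number passed this filter. In the set 1 scramble library, 157 of 219 Gm peaks and 3181 of 6485 peaks of other named genes had a tag number. The number of peaks per gene was 1.29 to 1.52 for Gm genes and 1.26 to 1.36 for other named genes. The mean difference was 0.104 peaks per gene, and it turned to -0.0782 without Gm20388, the gene of the widest span (a choice made after seeing the data).

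**Figure D2:**
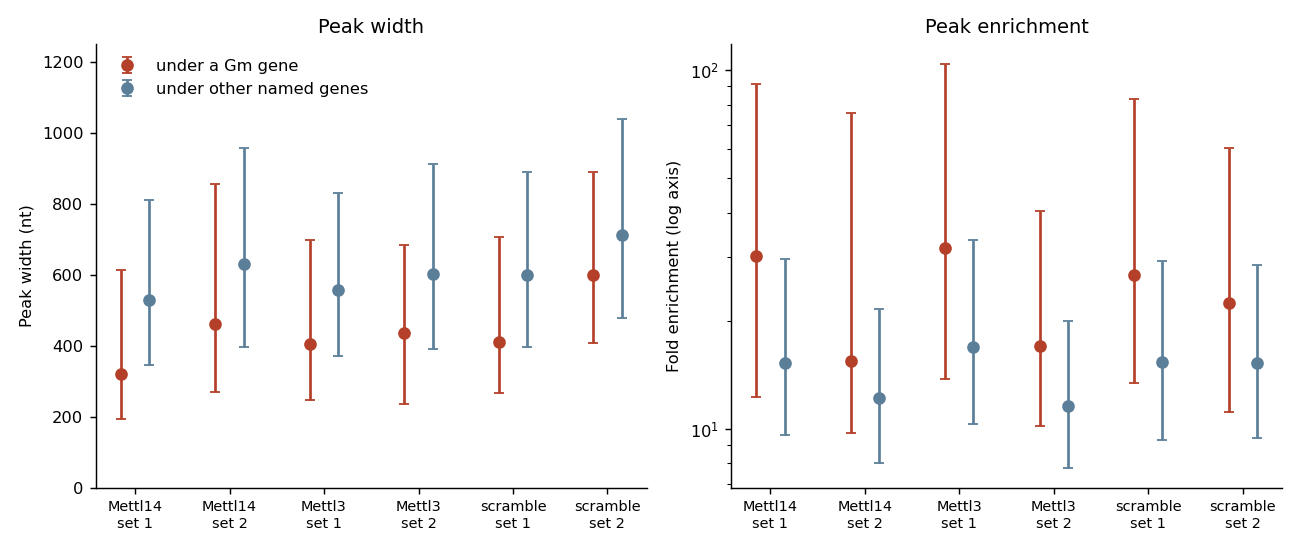
Peak width in nt (left panel) and fold enrichment on a log axis (right panel) in each of the 6 anti-m6A libraries, for peaks under a Gm gene (red) and under other named genes (blue). Points are medians over peaks and bars run over the middle 50% of peaks. The red median is lower in width and higher in enrichment in all 6 libraries.

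Many Gm peaks also stood under another gene. The share listed under a Gm gene and a gene of another name was 36.6% and 32.1% with Mettl14 knockdown, 37.2% and 31.6% with Mettl3 knockdown and 32.4% and 36.1% with scramble (set 1 and set 2). By comparison, 2.04% to 2.21% of the peaks of other named genes stood under 2 or more genes. That group leaves out every peak also listed under a Gm gene, so sharing with Gm genes is not counted in it. The sharing was concentrated: 171 Gm genes shared no peak, 37 shared every peak and 5 shared some. In the tables a peak was listed under each gene whose span it overlapped on the same strand by at least 1 nt, introns included.

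Exons of the annotation divide these peaks further. Of Gm peaks, 50.4% to 58.0% per library overlapped an exon of their Gm gene and no exon of another gene, against 95.0% to 97.0% of peaks of other named genes. Another 20.4% to 29.0% of Gm peaks overlapped an exon of another gene and none of their own, against 0.583% to 0.894%. Without Gm20388, described next, that Gm share was 8.54% to 17.9%. For Gm peaks only Gm genes counted as their own, whereas for other named genes every gene listed for the peak did. The exon shares of the classes are therefore not measured by the same rule. A peak on the opposite strand overlapped 1.77% to 7.41% of Gm peaks and 1.53% to 3.90% of peaks of other named genes, with the Gm share below the other share in some libraries and above it in others. The transcripts themselves were also repeated more often. Of Gm peaks whose centre lay on a transcript of the Gm gene, 5.17% to 11.1% per library had a central 100 nt found letter for letter in a transcript of a gene elsewhere, against 0.813% to 1.06% for other named genes, and 20 of 125 Gm genes had such a peak. Reads from these stretches could be placed at either copy, so the values of those genes are uncertain. For Gm4767 and Gm10778 the only copy found was under the same symbol, so a copy in a gene of another name was not shown.

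The widest case was Gm20388, a gene model of 4434882 nt on chromosome 8 (chr8:119910841-124345722, plus strand). It held 108 peaks on 38 sites, and 88 of these peaks were also listed under 1 of 17 other genes. Sites in all 6 libraries included those at Usp10 (a deubiquitinase), Zfpm1 (a cofactor of GATA transcription factors), Urb2 (ribosome biogenesis) and Galnt2 (an O-glycosylation enzyme). At Usp10, Zfpm1 and Urb2 the peak overlapped exons of that gene and no exon of Gm20388. At the Zfpm1 site the enrichment was 20.5 and 13.8 with Mettl14 knockdown, 34.2 and 15.1 with Mettl3 knockdown and 19.7 and 59.2 with scramble, and the groups overlap. The Usp10, Urb2 and Galnt2 sites ran from 4.68 to 12.8, and the groups overlapped at each.

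**Figure D3:**
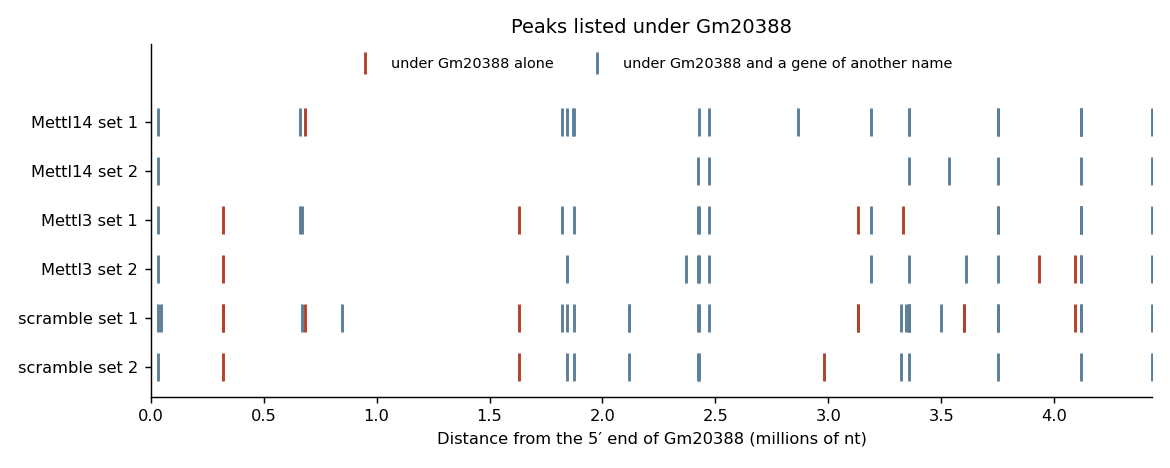
Position of each peak listed under Gm20388, as distance from the 5′ end of the gene model in Mb, with 1 row per anti-m6A library. Blue ticks are peaks also listed under a gene of another name (88 of 108) and red ticks are peaks under Gm20388 alone (20), and the blue ticks recur at the same positions from row to row.

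Other Gm genes shared every peak with a partner, at a site in all 6 libraries that lay on exons of that partner. The Gm20427 site, also under the zinc transporter gene Slc39a7, had enrichments of 7.18 and 5.74 with Mettl14 knockdown, 7.36 and 7.15 with Mettl3 knockdown and 5.59 and 6.22 with scramble. These 6 values lie close together, and the knockdown values overlap those of scramble. The Gm20716 site, also under Adnp, a homeobox transcription factor gene, had 8.36 and 8.85 with Mettl14 knockdown, 7.10 and 8.03 with Mettl3 knockdown and 6.49 and 7.20 with scramble. The Gm12057 site, shared with B3gnt2 and Commd1, had 13.1 and 9.56 with Mettl14 knockdown, 15.0 and 11.8 with Mettl3 knockdown and 9.53 and 11.8 with scramble. Gm20422 (with Zfp866) and Gm20510 (with Ccpg1) had enrichments of 5.74 to 11.1 over their 6-library sites. Gm20459, annotated now as Pakap, a gene joining Palm2 and Akap2, shared 4 sites with those genes, and the 2 sites in all 6 libraries, both in Akap2, ran from 4.18 to 5.33 and from 10.2 to 15.2. All of these 6-library enrichments lay below the lowest of the Gm medians given above.

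Scramble peaks under Gm genes were absent from the knockdown library more often than those of other named genes, in each table. A scramble peak was counted as lost if no knockdown peak overlapped it on the same strand. With Mettl14 knockdown, 132 of 219 Gm peaks (60.3%, exact 95% interval 53.5 to 66.8) were lost in set 1, against 38.2% of 6485 peaks of other named genes and 43.3% of all peaks. In set 2 it was 70 of 119 (58.8%, 49.4 to 67.8), against 40.7% of 4509 peaks and 45.9% of all peaks. With Mettl3 knockdown, 135 of 219 Gm peaks (61.6%, 54.9 to 68.1) were lost in set 1, against 40.2% and 45.4% of all peaks, and 57 of 119 (47.9%, 38.7 to 57.2) in set 2, against 36.3% and 41.9% of all peaks. The intervals are Clopper-Pearson and cover counting error only. With 1 knockdown library and 1 scramble library per table there is no test, and the 2 sets are the only repeat.

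New peaks were also more frequent under Gm genes. With Mettl14 knockdown, 44 of 131 Gm knockdown peaks (33.6%, 25.6 to 42.4) overlapped no scramble peak in set 1, against 14.8% for other named genes and 18.9% of all peaks, and 32 of 81 (39.5%, 28.8 to 51.0) in set 2, against 26.2% and 31% of all peaks. With Mettl3 knockdown it was 26 of 113 (23.0%, 15.6 to 31.9) in set 1, against 10.5% and 12.8% of all peaks, and 35 of 98 (35.7%, 26.3 to 46.0) in set 2, against 23.3% and 28.1% of all peaks. Over all listed peaks the Gm share was thus the higher one for gains as well as for losses. Among peaks with an FDR of at most 1% the excess in new peaks was 6.65 and -2.65 percentage points for Mettl14 and 0.115 and 3.45 for Mettl3 (set 1 and set 2). These rest on 7 and 1 new Gm peaks for Mettl14 and on 2 and 5 for Mettl3. New Gm peaks of the Mettl14 knockdown rested on medians of 11 and 18 tags, against 21 and 38 for new peaks of other named genes. Those of the Mettl3 knockdown rested on 12 and 11 tags, against 24 and 34.

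The same held without any knockdown. Of scramble Gm peaks of set 1, 53.4% (46.6 to 60.2) had no overlapping peak in the scramble library of set 2, against 37.5% for other named genes and 41.8% of all peaks. In the other direction it was 19.3% (12.7 to 27.6), against 12.0% and 17.4% of all peaks. Between the 2 Mettl14 knockdown libraries the Gm shares were 51.1% and 24.7%, against 37.7% and 20.7% (41.2% and 25.5% of all peaks), and between the 2 Mettl3 knockdown libraries 46.0% and 39.8%, against 30.3% and 21% (33% and 26.3% of all peaks). Gm peaks were thus found again less often than peaks of other named genes in these 6 comparisons within a condition, although for Mettl14 knockdown in set 2 the share absent was below that of all peaks.

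Width moved with these shares. Among scramble peaks of at most 300 nt, 81.7% of Gm peaks were lost with Mettl3 knockdown in set 1, against 74.0% for other named genes, while among those over 600 nt it was 30.9% against 23.2%. The Gm share lost was above that of other named genes in 12 of 12 combinations of 3 width classes and 4 tables, and the Gm share new was above in 9 of 12. Weighted by the widths of the Gm peaks, the Gm excess in the lost share averaged 13.2 percentage points with Mettl14 knockdown and 9.09 with Mettl3 knockdown, against 20.1 and 16.5 without classes. The excess in the new share was 6.95 and 4.62 points by the same weighting, against 16.1 and 12.4. Among peaks of at least 30 tags it was 8.27 points with Mettl14 knockdown and -0.023 with Mettl3 knockdown. The part of peak width and tag number in the shares was not tested.

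**Figure D4:**
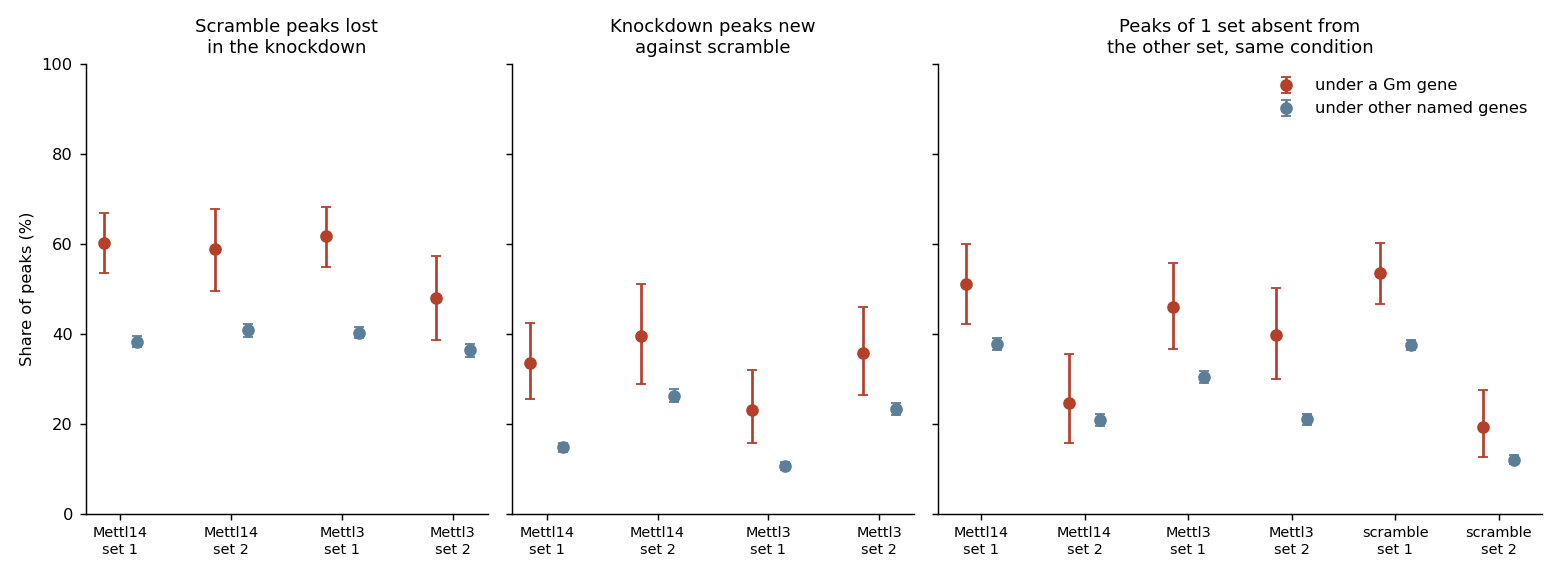
Share of peaks, in percent, with exact 95% binomial intervals, for peaks under a Gm gene (red) and under other named genes (blue). The panels give scramble peaks lost in each knockdown table, knockdown peaks new in each table, and peaks of 1 set absent from the other set under the same condition, and the red point is the higher of the 2 in all 14 pairs.

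By class, the losses with Mettl14 knockdown came to 57.9% and 54.7% for protein-coding Gm genes (set 1 and set 2), 67.6% and 64.9% for long noncoding ones and 52.2% and 66.7% for pseudogenes. With Mettl3 knockdown they were 57.0% and 42.2%, 61.8% and 56.8%, and 78.3% and 41.7%. Their intervals overlap (the pseudogenes had 23 and 12 scramble peaks). Genes named after RIKEN clones, the naming class most like the Gm genes, lost 42.6% and 41.6% in the Mettl14 tables and 48.3% and 38.2% in the Mettl3 tables, nearer to the other named genes, which include them, than to the Gm genes.

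Where a Gm peak was found in both libraries, its change resembled that of other genes. The log2 change is knockdown over scramble, from the scaled enrichments of the authors' deposited tables. Shared Gm peaks with a value under 0 made up 52.9% of 87 with Mettl14 knockdown in set 1 and 83.7% of 49 in set 2, against 55.6% and 86.4% for other named genes and 54.6% and 84.9% of all peaks. With Mettl3 knockdown it was 34.5% of 87 and 92.1% of 63, against 35.5% and 94.0%, and 35% and 93% of all peaks. The median log2 change in the authors' deposited tables was -0.03 and -0.66 for Gm peaks with Mettl14 knockdown, against -0.07 and -0.60, and 0.14 and -0.90 with Mettl3 knockdown, against 0.21 and -0.91. The median of all shared peaks stood at -0.06 and -0.59 and at 0.22 and -0.91 in these tables, so that a shift common to the whole table lies under each fold given next.

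A gene was called lower in a table if each listed peak was lost or had a log2 change under 0, and higher if each was new or above 0. Of the 93 Gm genes listed in both sets for Mettl14 knockdown, 43 (46.2%) were lower in both, against 41.6% of other named genes and 41.7% of all genes, 8 were higher in both (8.60%, against 7.58% and 7.6% of all genes) and 25 went opposite ways (26.9%, against 26.1% of all genes). For Mettl3 knockdown, 32 of 86 (37.2%) were lower in both sets, against 33.4% and 33.5% of all genes, 4 were higher in both (4.65%, against 5.85% and 5.82% of all genes) and 31 went opposite ways (36.0%, against 35.5% of all genes). These shares are near those of all genes. In single tables, the Gm share lower was 61.5% and 71.8% with Mettl14 knockdown, beside 57.8% and 70.5% of all genes, and 60.4% and 70.5% with Mettl3 knockdown, beside 49.6% and 75.6% of all genes. The Gm share higher was 28.2% and 20.9% with Mettl14 knockdown, beside 27.4% and 19.8% of all genes. It was 26.2% and 24.1% with Mettl3 knockdown, beside 34.7% and 16% of all genes. Set 1 of the Mettl3 knockdown thus had more Gm genes lower and fewer higher than the background, and set 2 the reverse.

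Of the 79 Gm genes listed in all 4 tables, 24 were lower in each (30.4%, against 24.9% of other named genes and 25% of all genes), and 15 of these had lost peaks alone. The 4 with a shared peak in each table were Gm5113, Gm9285, Gm16314 (now Rtl10) and Gm16517 (now Tpgs1, a subunit of the tubulin polyglutamylase complex). Those of them outside the naming rule, Gm16314 and Gm16517, and Mymx below were named after their values were seen. Relative to the median of all shared peaks in each of the authors' deposited tables, Gm5113 stayed below 0 in all 4 tables, by as little as -0.03 in set 1 for Mettl14. By that measure Gm9285 stood at 0.01 in set 2 for Mettl3, Gm16314 at 0.18 and 0.25 in set 2 for Mettl14 and Mettl3, and Gm16517 at 0.01 in set 1 for Mettl14 and 0.16 in set 2 for Mettl3, so these 3 were not lower in all 4 tables. A site's enrichment is that of its highest peak in the library, before scaling. Gm9285, an unprocessed pseudogene on chromosome 12, had enrichments of 7.20 and 7.21 with Mettl14 knockdown, 7.54 and 9.02 with Mettl3 knockdown and 15.8 and 10.2 with scramble (set 1 and set 2). All 4 knockdown values lay below both scramble values. Gm9285 was named for its log2 changes, so this separation follows in part from the choice. The share of all sites with such a separation was not counted. Its log2 changes in the authors' deposited tables were -1.27 and -0.87 for Mettl14 and -1.06 and -0.90 for Mettl3. The site lay in no annotated exon, so copies of its sequence were not searched.

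Gm5113, a lincRNA on chromosome 7 whose sequence is printed above, had enrichments of 83.4 and 46.1 with Mettl14 knockdown, 58.3 and 40.0 with Mettl3 knockdown and 80.4 and 83.7 with scramble. The Mettl3 knockdown values lay below both scramble values, and 1 Mettl14 knockdown value lay between them. Its log2 changes in the authors' deposited tables were -0.09 and -1.23 for Mettl14 and -0.46 and -1.78 for Mettl3. The sign was the same in all 4, and the size differed between the sets by more than 1 log2 unit. For Mettl14 in set 1 the sign comes from the scaling constant of 0.906. Before scaling, the knockdown value of 83.4 was above the 80.4 of scramble in that set. In the authors' deposited tables the log2 changes of Gm16314, shared with Gnb1l, lay between -0.66 and -0.31, and those of Gm16517 between -0.75 and -0.05. Before scaling, Gm16314 with Mettl3 knockdown in set 2 was above scramble, at 11.5 against 11.1. Gm16517 with Mettl14 knockdown in set 1 was also above it, at 11.3 against 10.6. In their other tables both genes were below scramble before scaling too. Mymx (Gm7325) was also among the 24: its site had 1 knockdown peak, of 8.54 with Mettl3 knockdown in set 2, and scramble peaks of 5.97 and 6.81. The authors' deposited table gives that pair a log2 change of -0.39, since its Mettl3 knockdown values of set 2 are scaled by 0.609.

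Gm17092, an antisense gene on chromosome 5, had a 6-library site of 15.2 and 15.1 with Mettl14 knockdown, 13.1 and 9.82 with Mettl3 knockdown and 15.5 and 19.5 with scramble. At this site every knockdown value was below both scramble values, by little for Mettl14 in set 1. Gm17092 too was named for its log2 changes, so this follows in part from the choice. With Mettl3 knockdown in set 2 a further peak of the gene was new, so Gm17092 was not called lower there. Gm10762, a protein-coding model on chromosome 2, had 25.7 and 15.4 with Mettl14 knockdown, 55.0 and 29.1 with Mettl3 knockdown and 28.9 and 26.3 with scramble, with knockdown peaks of 287 to 617 nt and scramble peaks of 1095 and 1133 nt. Where scramble had 1 wide peak each knockdown library had 2 narrower ones. With Mettl3 knockdown the higher of them was above the scramble value before scaling. After scaling by 0.609 in set 2, both pairs had a log2 change under 0, and the gene was called lower there. The largest decrease of a pair was -0.38 and -1.69 for Mettl14 and -0.88 and -1.28 for Mettl3 in the authors' deposited tables. Gm11611, an intronic transcript of Srcin1 by annotation, had 55.0 with Mettl14 knockdown in set 1 and no such peak in set 2, 26.1 and 14.9 with Mettl3 knockdown and 32.9 and 44.5 with scramble. Its log2 changes in the authors' deposited tables were 0.60 for Mettl14 in set 1 and -0.33 and -2.30 for Mettl3, so the knockdowns differed in sign in set 1.

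Higher in all 4 tables were 2 Gm genes (2.53% of the 79, against 2.28% of other named genes and 2.29% of all genes). Lncenc1 (Gm11019, named here after its values were seen) had enrichments at its main site of 15.8 and 7.71 with Mettl14 knockdown, 12.0 and 10.2 with Mettl3 knockdown and 6.12 with scramble in set 1, and no scramble peak in set 2. In set 1 both knockdown values were above the scramble value, and in set 2 there was no scramble peak to set them against. The scramble peak was 1932 nt wide, where each knockdown library had 2 peaks of 305 to 1303 nt. In set 1 the authors' deposited tables give log2 changes of 1.23 with Mettl14 knockdown and 0.98 with Mettl3 knockdown. Each is for the more enriched of the 2 peaks, which lay at different places in the 2 knockdowns. Zfp987 (Gm13051) had new peaks of 12.3 and 13.6 with Mettl14 knockdown, on 50 and 79 tags, and of 31.9 and 13.5 with Mettl3 knockdown, on 55 and 52 tags, and no scramble peak. It was the only Gm gene with new peaks alone in all 4 tables. The central 100 nt of its peaks occur unchanged in 4 or 5 further genes, among them Zfp986, Zfp988 and Zfp989, so the peak cannot be given to 1 of them.

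The 8 Gm genes now named Zfp, 6 on chromosome 4 and 2 on chromosome 2, had 29 peaks on 12 sites. Zfp970 (Gm14420) was the one of them with a site in all 6 libraries, at 16.5 and 8.96 with Mettl14 knockdown, 26.1 and 23.1 with Mettl3 knockdown and 89.3 and 10.8 with scramble. The scramble values differed between the sets by more than the knockdown values did, and the scramble peaks were 172 and 1278 nt wide. The set 2 Mettl14 knockdown peak at this site was not listed under the gene itself. Zfp992 (Gm13251, named after its values were seen) had 1 scramble peak, of 18.2 on 26 tags, whose central 100 nt were also found in Zfp991 and in Znf41-ps. Elsewhere in the gene it had a peak with Mettl3 knockdown in set 1, for which no such copy was found. The other members had 1 to 8 peaks each, on 1 to 3 sites.

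In set 1 and set 2 alike, 76 Gm genes had a scramble peak, and 17 of them lost all such peaks under either knockdown (22.4%, against 8.45% of other named genes and 8.76% of all genes). They held 7 long noncoding genes, 7 protein-coding genes, 2 pseudogenes and 1 gene not in the annotation. Their 38 scramble peaks rested on 5 to 247 tags, with a median of 28.5. The highest enrichments belonged to Gm20632, an antisense transcript on chromosome 3, at 367 and 131 on 31 and 21 tags. Its central 100 nt are repeated in Gm20633 nearby, so the 2 cannot be told apart. Gm9103 and Gm4152, both processed pseudogenes, had 139 and 134 on 14 and 18 tags and 105 and 129 on 17 and 29 tags. Gm13832, a lincRNA, had 134 and 98.5 on 13 and 22 tags, in no annotated exon. Mansc4 (Gm5887) had 52.7 and 126 at its main site on 16 and 30 tags. Gm20649 had scramble peaks at different sites in the 2 sets, of 95.7 and 67.0 in set 1 and of 221 in set 2, on 14 to 16 tags. Beside them it had a new peak of 120 on 8 tags with Mettl3 knockdown in set 2. Every one of these sites rested on 31 tags or fewer.

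Some Gm sites were present in all 6 libraries with values that swung between sets. Gm16136, an antisense gene on chromosome 15, had enrichments of 44.8 and 33.0 with Mettl14 knockdown, 437 and 25.4 with Mettl3 knockdown and 41.8 and 213 with scramble, on 38 to 48 tags in the knockdown libraries. The highest and the lowest value both came from Mettl3 knockdown, and the groups overlap. The authors' deposited tables accordingly give log2 changes of 3.39 and -3.78 with Mettl3 knockdown, and of -0.04 and -3.05 with Mettl14 knockdown. Ap5b1 (Gm962) had, at the site printed above, 34.2 and 35.1 with Mettl14 knockdown, 24.5 and 11.8 with Mettl3 knockdown and 45.2 and 24.7 with scramble. At its second 6-library site it had 43.9 and 108 with Mettl14 knockdown, 22.3 and 25.6 with Mettl3 knockdown and 102 and 39.1 with scramble. Mettl3 knockdown was below scramble of its own set at both sites, with log2 changes down to -2.19 and -1.78 in the authors' deposited tables, while Mettl14 knockdown was below it in set 1 and above it in set 2.

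Cep85l (Gm9766) had 44.3 and 17.5 with Mettl14 knockdown, 32.3 and 20.2 with Mettl3 knockdown and 27.6 and 34.6 with scramble. Both knockdowns were above scramble in set 1 and below it in set 2. Gm11175, an antisense gene on chromosome 8, had 104 and 23.1 with Mettl14 knockdown, 88.9 and 40.6 with Mettl3 knockdown and 65.9 and 59.4 with scramble. In set 1 the knockdown peaks did not overlap the scramble peak of the site, which was not listed under the gene, and counted as new. Gm16309, under Slc5a3 and Mrps6, had 30.3 and 36.5 with Mettl14 knockdown, 46.5 and 34.6 with Mettl3 knockdown and 121 and 20.7 with scramble, so the scramble values bracket the knockdown values. Gm5607, whose peaks lie on exons of the neural transcription factor gene Sox1, had 39.4 and 29.9 with Mettl14 knockdown, 67.4 and 28.8 with Mettl3 knockdown and 59.3 and 39.7 with scramble at its 6-library site.

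Gm608 and Gm20517 were the other genes with the most sites, 5 each. Gm608, now Usf3, had a site in all 6 libraries, of 15.0 and 10.4 with Mettl14 knockdown, 8.40 and 12.6 with Mettl3 knockdown and 9.64 and 13.1 with scramble, and 4 sites in 1 or 2 libraries. Gm20517 had no site in all 6. Its best covered one, on exons of Med20, a Mediator subunit gene, had 42.4 with Mettl14 knockdown in set 1, 26.3 and 12.1 with Mettl3 knockdown and 11.3 and 12.3 with scramble.

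**Figure D5:**
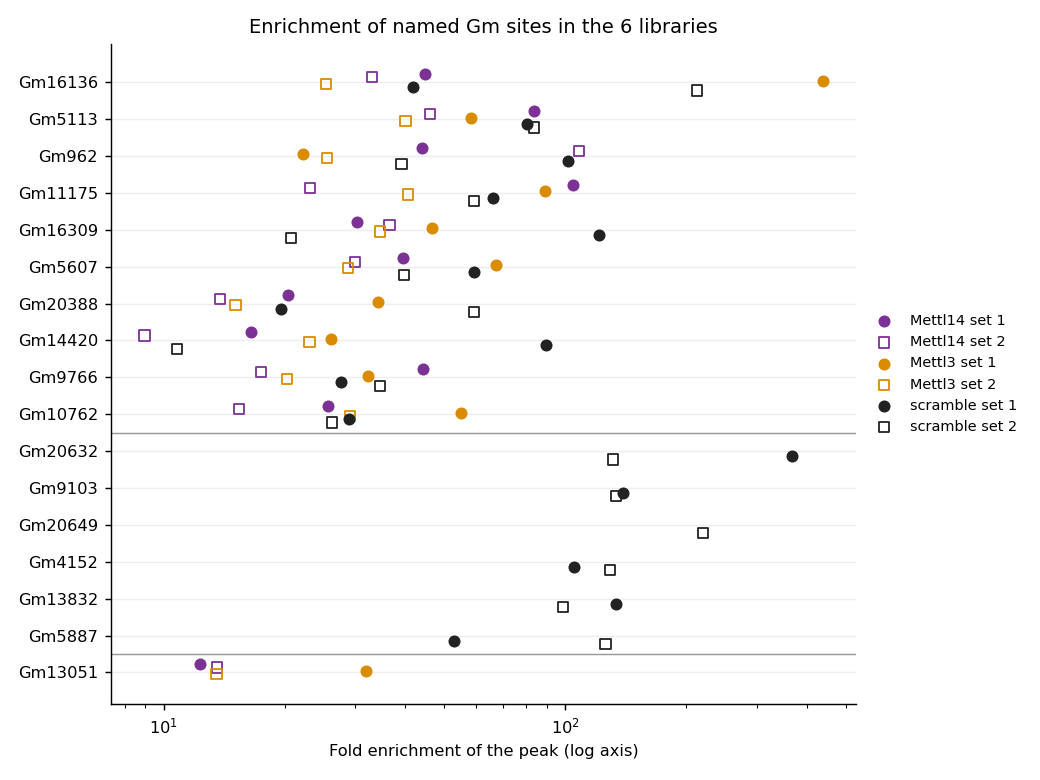
Fold enrichment (log axis) of 1 site per named Gm gene in each of the 6 anti-m6A libraries, with colour for the condition, filled circles for set 1 and open squares for set 2. Above the upper line are genes with a site in all 6 libraries, chosen for the highest scramble enrichment, and in each the ranges of knockdown and scramble symbols overlap. Between the lines are genes that lost every scramble peak, with black symbols alone at the sites drawn, and below them is Gm13051, with knockdown symbols alone.

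Markers could be read only as the presence of a peak. Of 8 embryonic stem cell markers, 3 (Sox2, Klf4 and Esrrb) had a peak in at least 1 library, and Pou5f1 and Nanog had none. Of 8 feeder fibroblast markers, 1 (Thy1) had a peak, in the set 2 Mettl14 knockdown library alone, and Col1a1, Col1a2 and Col3a1 had none. The tables hold no expression level, so a change in methylation and a change in the amount of RNA pulled down cannot be separated for any gene here. The part of feeder cells in the results was not tested.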

How the data were processed

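Libraries came from J1 cells with Mettl14, Mettl3 or scramble shRNA, precipitated with an anti-m6A antibody (2 per group). Libraries without antibody, 6 in number, were not analysed here. The submitters' processing notes name build mm10 with Picard 1.74, TopHat2 2.0.6, cutadapt 1.1, SAMtools 0.1.18, CASAVA 1.8.2 and Bowtie 0.12.7. No version of the peak caller was found in the labels or headers. The series text says that each library had 1 biological replicate, nothing ties replicate numbers to the sets, and the spread between sets may be technical.

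The authors deposited 4 tables of MACS peaks, 1 per knockdown and set. Per the file headers, each peak has a tag count, a fold enrichment (ratio over its own control library), an FDR in percent (up to 9.99%), a scaled enrichment score and, for shared peaks, a signed fold score. The scaled score equals the ratio times a constant of the table (0.906 and 0.777 for Mettl14, 1.00 and 0.609 for Mettl3, set 1 and set 2). Scramble peaks found in both knockdowns have no row of their own: their enrichment was solved from the signed score, and their tags and FDR are blank.

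Lost, new and shared peaks were rebuilt from coordinates (1 nt, same strand) and equalled the authors' marks for every peak. Listed genes equalled same-strand overlap with gene spans for every peak. Gene classes and sequences came from GENCODE M21, in which 199 of the 213 Gm genes were found by identifier. Peaks with a Gm gene formed the Gm group, and peaks with other names alone the comparison group. With 1 library per group in a table, no test was fitted. Total reads are not in the tables, so depth per library is unknown. Tags per Gm peak ran from 4 to 546. Fates and gene calls were tested on simulated peaks, with 1 site per gene and no overlapping genes. That simulation did not cover split peaks, genes with several sites or peaks under more than 1 gene. Python 3.11.15, pandas 2.3.3, numpy 2.4.6, scipy 1.17.1 and matplotlib 3.10.9 were used. Alternatives were filters on FDR (1%) and tags (30), other overlaps, the scaling, other definitions of the Gm group and each set alone. Members, lists and alternatives were chosen with earlier results of these data known.

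Named genes were the Gm genes of highest scramble enrichment with a site in all 6 libraries (up to 10), of highest scramble enrichment among those that lost every scramble peak (up to 6), with new peaks alone in all tables, with the largest log2 changes repeated in both sets, with the most sites (5), and with every peak under another gene (6). Exceptions are marked in the text.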

Additional observations from a re-analysis of the deposited data

Results flagged for a closer look

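Natd1 (Gm16515), a gene with an N-acetyltransferase domain by its name, was the Gm gene whose 2 knockdowns moved opposite ways in both sets. The authors' deposited tables give log2 changes of -0.41 and -0.80 with Mettl14 knockdown (set 1 and set 2), and of 0.37 and 0.12 with Mettl3 knockdown. Its single site had enrichments of 9.73 and 6.08 with Mettl14 knockdown, 15.2 and 14.6 with Mettl3 knockdown and 11.7 and 8.21 with scramble. The peak called was 1611 and 1913 nt wide with Mettl14 knockdown, 1045 and 1098 nt with Mettl3 knockdown and 2227 and 2260 nt with scramble, and the part of the width in the enrichments was not tested. The difference between the knockdowns was not tested, and both are read against the same scramble library within a set.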

How the results depend on the processing

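No paired analysis was possible because no result comes from a test, and each table already sets a knockdown library against the scramble library of its set. Differences are Gm minus other named genes, and shares are in percentage points averaged over the sets. Filters on FDR and tags were not run for lost shares, since scramble peaks found in both knockdowns have neither value. Such peaks passed both filters in the counts of genes, widths, enrichments and peaks per gene, so those values are only partly filtered. At an FDR of at most 1%, the tables listed 95 Gm genes (213 in all), the width difference was -82 nt, the log2 enrichment ratio 0.28, peaks per gene 0.186, new peaks 2.00 (Mettl14) and 1.78 (Mettl3), shared lower -3.16 and 1.66, genes lower in both sets 10 and 5, and higher 1 and 2. With at least 30 tags, the values were 113 genes, -30.3 nt, 0.15, 0.199, new 8.27 and -0.023, shared lower -1.91 and 0.949, and for Mettl14 27 genes lower and 3 higher. Over peaks under Gm genes alone they were -231 nt, 1.23, -0.0786 peaks per gene, lost 24.9 (Mettl14), new 23.6 and 18 and shared lower -5.85 and -5.18. With Gm symbols still in use, peaks per gene differed by 0.165. Without the widest gene (added after seeing the data) it was -0.0782, the share also under another gene 26.4%, shared lower -5.32 and -3.28 and new 13 (Mettl3). Within width classes (also added), lost was 13.2 and 9.09 and new 6.95 and 4.62. With an overlap of 50% of the shorter peak, shared lower was -2.72 (Mettl14) and new 12.3 (Mettl3). On either strand, shared lower was -6.07 and -3.28 and new 11.5 (Mettl3). Without the scaling constant, shared lower was -1.61 and -0.737, and 10 genes were higher with Mettl3 knockdown. With the table's median set to 0, shared lower was 0.448 and 0.477, and again 10 were higher. The shared-lower difference therefore has no settled sign, and the cause was not tested. With 1 set alone, ranges were 131 to 186 genes, -183 to -150 nt, 0.49 to 0.91 for the log2 ratio, 0.0816 to 0.126 peaks per gene, lost 18.1 to 22.0 and 11.6 to 21.4, new 13.3 to 18.8 and 12.4 to 12.5, and shared lower -2.75 to -2.75 and -1.94 to -1.04. Genes lower ran from 79 to 107 and 79 to 99, and higher from 23 to 49 and 27 to 43. Averaged over the sets, excesses in lost and new peaks kept their sign under every alternative run, except new peaks of at least 30 tags with Mettl3 knockdown. Depth per library is unknown, and peaks of few tags are the least certain.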
